A study of Mus musculus with 8 samples.

Results

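The Mex3 family of RNA-binding proteins was examined in mouse intestinal crypts. Its members were taken as the genes named Mex3a, Mex3b, Mex3c and Mex3d, which are 4 of the 55114 genes in the deposited table, and no other gene carried a Mex3 name with a single letter. Crypts are the pockets of the intestinal epithelium that hold the intestinal stem cells. They were shaken free with EDTA from the intestines of 8-week-old C57BL/6 mice and passed through a 70 μm strainer, and their total RNA was sequenced. The KO group held 4 Mex3a-/- mice, in which exon 1 and part of exon 2 of Mex3a were deleted in every cell of the body, and the Ctrl group held 4 of their littermates, labelled Ctrl and called WT in the series text. Because the deletion was present from conception in all tissues, it is not a model of a loss limited to the epithelium. The question put to these data was whether the 3 other members were higher in crypts that lacked Mex3a.

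MEX3 proteins carry KH domains, with which they bind RNA, and a RING finger of the kind found in ubiquitin ligases. They shuttle between nucleus and cytoplasm and act after transcription, on the stability or the translation of the RNAs they bind. The founding member, MEX-3 of C. elegans, sets cell identity in the early embryo, and Mex3a is known in the gut as a gene of slowly cycling Lgr5-positive stem cells. The 4 mammalian genes are paralogs, which makes reads from one a possible source of counts for another.

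Between 20324184 and 24726221 reads per Ctrl mouse were counted on genes (median 21364131), and between 23489180 and 30654105 per KO mouse (median 24362658). KO replicate 4 was the deepest library. All 4 Mex3 genes passed the filter on low counts and were among the 16109 genes tested. Xist and Y-linked transcripts showed that replicates 1 and 2 were mice with Y transcripts and replicates 3 and 4 were mice with Xist, in both genotypes. The crypt identity of the samples was checked with markers. All 8 epithelial markers were present, and their summed level was 9070 to 9589 CPM (counts scaled to a library of 1000000 reads) in Ctrl and 10215 to 11713 CPM in KO. Summed levels of 8 stromal markers stayed at 9.98 to 20.01 CPM in Ctrl and 14.6 to 26.5 CPM in KO, and those of 5 enteric nerve and glia markers at 4.16 to 6.18 and 4.49 to 6.65 CPM.

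The members were distinct enough in sequence for their reads to be told apart over most of their length. Each is annotated with 2 exons, and no pair of members shared a stretch of 30 bases, over transcripts of 3266 to 5778 bases. The longest identical run in any pair was 29 bases, between Mex3b and Mex3d, in the coding region 88 bases before its end. It is printed here from the GENCODE M21 transcripts because it marks the place where the paralogs are most alike. Capitals mark the shared bases, which lie at chr7:82870093-82870121 on the plus strand and at chr10:80381313-80381341 on the minus strand of GRCm38.
Mex3b: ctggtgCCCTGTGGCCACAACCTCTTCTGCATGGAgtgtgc
Mex3d: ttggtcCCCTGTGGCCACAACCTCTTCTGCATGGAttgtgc
In both genes the run ended the same distance before the stop, and 26 of its bases recurred in Mex3c. Mex3a shared at most 21 bases with Mex3b, 19 with Mex3c and 14 with Mex3d. The table holds 1 row that overlaps Mex3a (Mir1905, on the opposite strand) and 1 that overlaps Mex3d (Gm22721), and both had 0 counts in every mouse.

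The deleted gene itself checks the labels. Mex3a (ENSMUSG00000074480) spans bases 88532395 to 88541396 of chromosome 3 (GRCm38, plus strand). In Ctrl replicates 1 to 4 it stood at 12.4, 11.0, 15.97 and 13.7 CPM, from 269, 236, 327 and 328 counts. In KO replicates 1 to 4 it stood at 0.840, 1.09, 0.260 and 0.266 CPM, from 20, 28, 6 and 8 counts. Every KO mouse was far below every Ctrl mouse, and none was at 0. Mex3a fell by 4.43 on the log2 scale (SE 0.43, 95% interval -5.39 to -3.47, adjusted p = 0.0310 by edgeR's quasi-likelihood test with Benjamini-Hochberg adjustment), a level 21.6-fold lower. It was the 1 gene called at an adjusted p under 0.05, or 0.00621% of the genes tested. Fitting the replicate number as a block gave -4.51 on the log2 scale and an adjusted p of 0.126, so that the call was lost while the size was kept. The call was also lost when Ctrl replicate 1, 3 or 4 or KO replicate 1, 3 or 4 was left out, with adjusted p-values of 0.151, 0.214, 0.0857, 0.152, 0.0770 and 0.0748, and the log2 fold change stayed between -4.87 and -4.17 without any single mouse. An exact two-sided permutation test over the 70 assignments of the mice gave p = 0.0286, the smallest it allows.

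**Figure D1:**
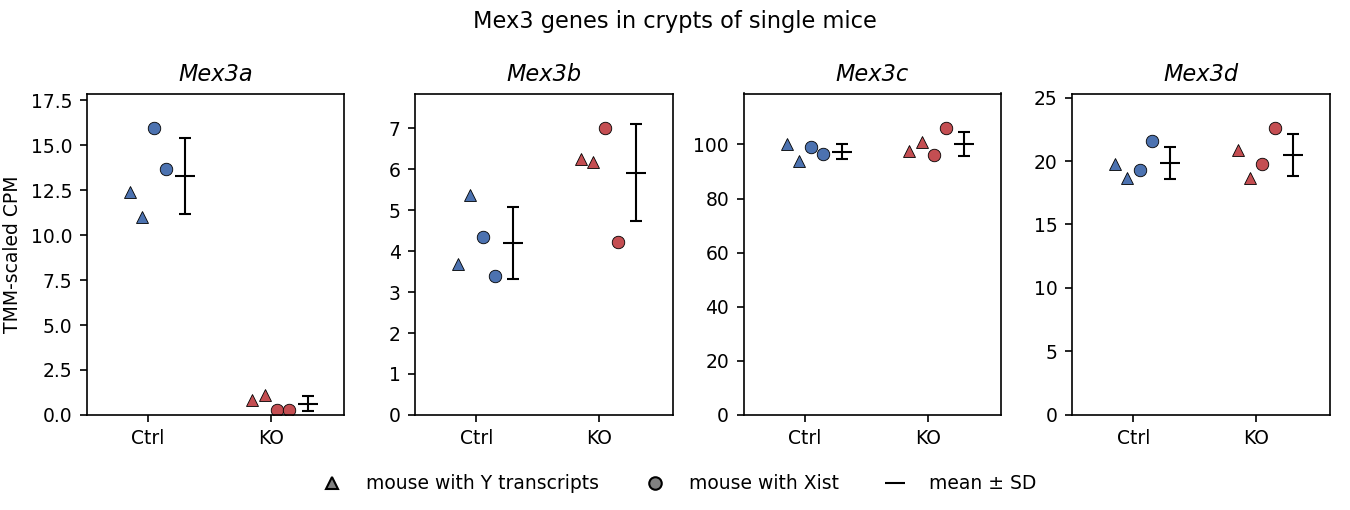
TMM-scaled CPM of each Mex3 gene in each mouse, with Ctrl in blue and KO in red, triangles for mice with Y transcripts, circles for mice with Xist, and a bar for the mean ± SD of 4 mice. Each panel has its own scale from 0, and Mex3a is at 11.0 to 15.97 in Ctrl and 0.260 to 1.09 in KO, while the genotypes overlap for the other members.

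The KO signal of Mex3a was small but counted. Its KO mean of 0.613 ± 0.417 CPM (SD, n = 4) was 4.61% of the Ctrl mean of 13.3 ± 2.10 CPM (SD, n = 4). The annotated Mex3a transcript has 454 bases in exon 1 and 5324 in exon 2, and 72.9% of its length is 3′UTR. Counts per gene do not show where along the transcript the KO reads lay. Counting error alone gives 95% Poisson intervals of 12.2 to 30.9 counts for KO replicate 1, 18.6 to 40.5 for replicate 2, 2.20 to 13.1 for replicate 3 and 3.45 to 15.8 for replicate 4. The interval of KO replicate 2 meets neither that of replicate 3 nor that of replicate 4, but the interval of KO replicate 1 meets both.

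The residual Mex3a level was higher in both KO mice with Y transcripts than in both KO mice with Xist. Among mice with Y transcripts, the KO mean was 0.963 CPM against 11.7 CPM in Ctrl, or 8.21%. Among mice with Xist, it was 0.263 CPM against 14.8 CPM, or 1.77%. The difference between these 2 changes was -2.19 on the log2 scale (SE 0.35, unadjusted p = 0.000322, adjusted p = 0.687 by edgeR's quasi-likelihood test of the interaction), so that it did not pass the threshold. At an unadjusted p under 0.05 the interaction was called for 616 genes, or 3.82% of those tested, and at an adjusted p under 0.05 for 0% of them. Without the filter on low counts, which brings 31255 genes into the fit, its adjusted p was 0.00104 and 407 genes passed. The same interaction was 0.083 (SE 0.45) for Mex3b, 0.018 (SE 0.13) for Mex3c and 0.0083 (SE 0.20) for Mex3d, with unadjusted p-values from 0.858 to 0.968 by edgeR. Each group holds 2 mice per genotype. The split is also that of replicates 1 and 2 against 3 and 4, so any other difference between those mice cannot be told apart from it.

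Transcripts of crypt base stem cells, the cells in which Mex3a is known to be made, stood lower in KO as well. The summed level of Lgr5, Olfm4, Ascl2, Smoc2, Axin2 and Slc12a2 was 5316 to 5933 CPM in Ctrl and 4008 to 4942 CPM in KO, and 4 of the 6 were lower at an unadjusted p under 0.05, against 3.05% of all genes. None of the 6 passed after adjustment. Olfm4 made up 65.4% to 75.5% of the sum, and the sums of the other 5 overlapped, at 1455 to 1764 CPM in Ctrl and 1216 to 1576 CPM in KO. The 4 Paneth cell markers, Lyz1, Defa24, Mmp7 and Itln1, summed to 13718 to 40184 CPM in Ctrl and 6979 to 22034 CPM in KO (median over genes -0.67 on the log2 scale), with none at an unadjusted p under 0.05 by edgeR, and 3 of the 8 epithelial markers were higher at that threshold, against 5.33% of all genes. In RNA of whole crypts, fewer cells of a type and less RNA per cell cannot be told apart. The part of these markers in the Mex3a difference was not tested.

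A promoter sequence from RefSeq was available for Mex3a and Mex3b (GRCm38.p6, 250 bases before to 50 after the start). It was read because E2F3, an activator of cell cycle genes, is named in the study as a regulator of Mex3a. The study reported E2f3 sites in a longer upstream region and tested them with mutated promoter reporters and chromatin immunoprecipitation. The 250 bases used here cover only part of that region. How matches in this window relate to those sites was not examined. The motifs TTTCCCGC, TTTGGCGC and TTTCGCGC were searched on both strands. The Mex3a window held 1 of them, TTTCCCGC on the opposite strand, 85 bases before the RefSeq start. It is shown in capitals as read on the plus strand, at chr3:88531838-88531877.
Mex3a promoter: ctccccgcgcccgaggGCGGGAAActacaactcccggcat
The Mex3b window held none of the 3. Over 32851 mouse promoters of the same length, 1.07% held TTTCCCGC and 1.84% held any of the 3. E2f3 itself was measured at 36.7 ± 5.14 CPM in Ctrl and 35.6 ± 2.20 CPM in KO (SD, n = 4 each), with a log2 fold change of -0.041 (SE 0.11, adjusted p = 0.953 by edgeR).

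Mex3b was the paralog with the largest difference on the log2 scale. It encodes an RNA-binding ubiquitin ligase with known roles in innate immune receptors and apoptosis, and spans bases 82867333 to 82871515 of chromosome 7 (plus strand, ENSMUSG00000057706). Ctrl replicates 1 to 4 had 3.70, 5.37, 4.35 and 3.38 CPM, from 80, 115, 89 and 81 counts. KO replicates 1 to 4 had 6.26, 6.17, 7.01 and 4.22 CPM, from 149, 159, 162 and 127 counts. KO replicates 1, 2 and 3 were above every Ctrl mouse, and KO replicate 4 was below Ctrl replicates 2 and 3, so the genotypes overlapped. Each KO mouse was above the Ctrl mouse of the same number. The log2 fold change was 0.49 (SE 0.21, 95% interval 0.0098 to 0.98, unadjusted p = 0.0464, adjusted p = 0.589 by edgeR), a ratio of 1.41, and the call was not made. Of all genes tested, 5.33% passed an unadjusted p of 0.05 in the upward direction. With the replicate block the unadjusted p was 0.0248 and the adjusted p 0.373. Leaving out 1 mouse gave log2 fold changes from 0.40 to 0.63 and took the unadjusted p as high as 0.122, without KO replicate 3. The exact two-sided permutation test on CPM gave p = 0.0857.

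Mex3b was also counted on few reads. Its biological coefficient of variation was estimated at 0.237, against 0.0999 for Mex3c and 0.137 for Mex3d. Among other cells that can carry it, 7 immune markers summed to 12.2 to 24.3 CPM in Ctrl and 19.1 to 51.1 CPM in KO, and 2 of the 6 that could be tested were higher at an unadjusted p under 0.05, against 5.33% of all genes. By mouse, the immune sum in KO replicates 1 to 4 was 19.1, 20.9, 51.1 and 38.4 CPM. KO replicate 3 had both the highest Mex3b and the highest immune sum, while KO replicate 4 had the second highest immune sum and the lowest Mex3b of the KO mice. The part of immune cells in the Mex3b values was not tested.

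The 3′UTRs of the family were searched for the MEX3A recognition element, because a member that holds it could be bound by the protein that was lost. The element is a 4-base part ending in AG and a 4-base part ending in TA, with 0 to 8 bases between them. Matches were 13 in Mex3a (4215 bases of 3′UTR), 6 in Mex3b (1306 bases), 9 in Mex3c (1779 bases) and 3 in Mex3d (870 bases). The element is common: 70.6% of 12843 tested genes with an annotated 3′UTR had at least 1 match. Among genes whose 3′UTR was within 20% of the same length, as many matches or more were found in 39.2% for Mex3a, 18.2% for Mex3b, 11.1% for Mex3c and 32.7% for Mex3d. Matches of Mex3b, as the paralog with the largest log2 difference, and of Mex3d are shown with the parts of the element in capitals, at chr7:82870496-82870505, chr7:82871061-82871070 and chr7:82871462-82871470 on the plus strand and at chr10:80380403-80380411 on the minus strand.
Mex3b site 1: aacgATAGttTTTAcact
Mex3b site 2: ggatGGAGatTTTAtagg
Mex3b site 6: atcaAGAGtTTTAtttt
Mex3d site 3: atccAGAGtTTTAtttt
The last match of Mex3b and the last of Mex3d hold the same letters from the element to the end of the window. A match of this short element is a description of the sequence, and the tables hold no measure of binding.

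Mex3c was the most abundant member per length, and its change did not pass the test. It encodes a ubiquitin ligase known for acting on the mRNA of MHC class I molecules and on the RNA sensor RIG-I, and spans bases 73573044 to 73592575 of chromosome 18 (plus strand, ENSMUSG00000037253). Ctrl replicates 1 to 4 had 100.2, 93.9, 99.0 and 96.3 CPM. KO replicates 1 to 4 had 97.6, 100.8, 96.0 and 106.1 CPM. The genotypes overlapped, with KO replicates 2 and 4 above the highest Ctrl mouse and Ctrl replicate 2 below the lowest KO mouse. The log2 fold change was 0.040 (SE 0.061, 95% interval -0.098 to 0.18, adjusted p = 0.909 by edgeR), which leaves room for a ratio between 0.935 and 1.13.

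Mex3d, known for binding the AU-rich element of the Bcl2 mRNA, spans bases 80380355 to 80387659 of chromosome 10 (minus strand, ENSMUSG00000048696). In Ctrl it had 19.8, 18.6, 19.3 and 21.6 CPM in replicates 1 to 4, and in KO 20.9, 18.7, 19.8 and 22.6 CPM. The genotypes overlapped, with KO replicate 4 above the highest Ctrl mouse, and each KO mouse was above the Ctrl mouse of the same number, by as little as 18.70 against 18.64 CPM in replicate 2. Its log2 fold change was 0.048 (SE 0.099, 95% interval -0.17 to 0.27, adjusted p = 0.939 by edgeR), and without KO replicate 4 it was -0.0023. Exact permutation tests gave p = 0.371 for Mex3c and p = 0.571 for Mex3d. Thus 1 of the 3 paralogs had an unadjusted p under 0.05, where 8.38% of all genes did in either direction, and none of the 3 had values that separated the genotypes, as 4.05% of genes did.

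**Figure D2:**
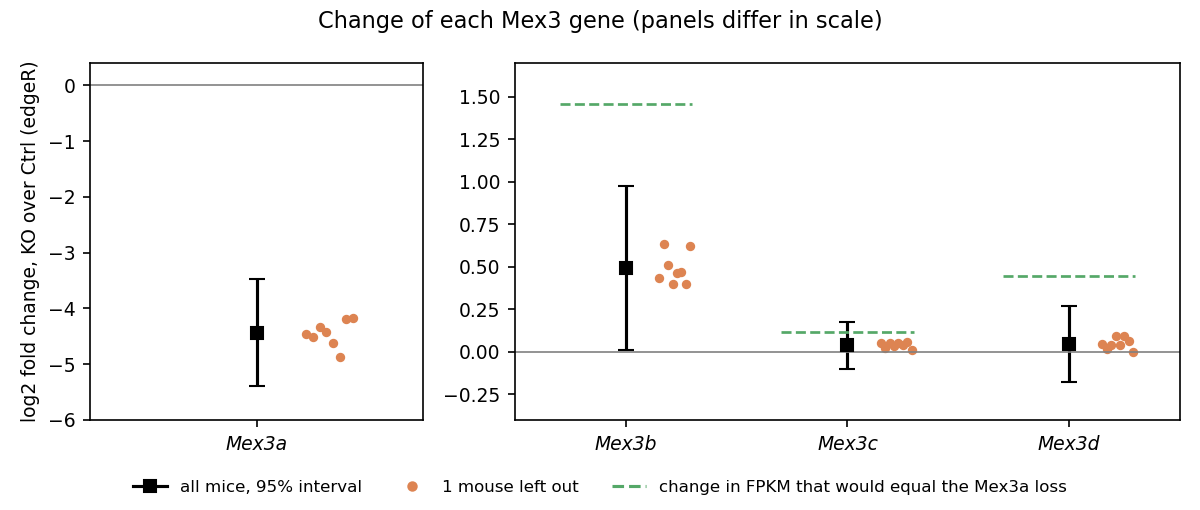
Log2 fold change of KO over Ctrl for each Mex3 gene by edgeR, with its 95% interval (black), the values with 1 mouse left out (orange), and the change in FPKM that would by itself equal the loss of Mex3a (green dashes). The panels differ in scale. The intervals of Mex3b (0.0098 to 0.98) and Mex3d (-0.17 to 0.27) end below their dashes at 1.46 and 0.44, and that of Mex3c (-0.098 to 0.18) contains its dash at 0.12.

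Levels of different genes were compared on the deposited FPKM, which is per length. In Ctrl, mean FPKM was 25.8 ± 0.718 for Mex3c, 6.02 ± 0.378 for Mex3d, 2.28 ± 0.368 for Mex3a and 1.24 ± 0.263 for Mex3b (SD, n = 4). These levels were above those of 87.0%, 56.2%, 36.6% and 27.1% of the genes tested. In KO they were 26.7 ± 1.19 for Mex3c, 6.26 ± 0.510 for Mex3d, 1.76 ± 0.353 for Mex3b and 0.106 ± 0.0721 for Mex3a (SD, n = 4). Mex3a therefore went from the third place to the last. Within a mouse, Mex3c was 4.29-fold above Mex3d (3.90 to 4.71 over mice), and Mex3d was 4.22-fold above Mex3b (2.90 to 6.56; 4.92-fold in Ctrl and 3.61-fold in KO). Both orders held in 8 of 8 mice, each with p = 0.00781 by a two-sided exact sign-flip permutation test, before and after adjustment over the 3 pairs, the smallest value that 8 mice allow. The closest neighbours were Mex3a and Mex3b in Ctrl. Mex3a was above Mex3b in each of the 4 Ctrl mice, by 1.95, 1.19, 2.13 and 2.35-fold, and its lowest FPKM of 1.90 was above the highest of Mex3b, 1.59.

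The FPKM of the members were summed to set the size of the Mex3a loss beside the levels of the other 3. In Ctrl replicates 1 to 4 the 4 genes summed to 35.6, 34.1, 36.4 and 35.5 FPKM. In KO replicates 1 to 4 they summed to 34.5, 34.6, 33.7 and 36.5 FPKM. The genotypes overlapped, with means of 35.4 ± 0.935 and 34.8 ± 1.17 (SD, n = 4 each). Mex3a made up 5.56% to 7.58% of the sum in Ctrl and 0.126% to 0.542% in KO. Its mean FPKM was 2.17 lower in KO, which is 6.57% of the Ctrl sum of the other 3 members.

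The sum of Mex3b, Mex3c and Mex3d was 33.5, 32.2, 33.6 and 33.1 FPKM in Ctrl replicates 1 to 4, and 34.4, 34.5, 33.7 and 36.4 FPKM in KO replicates 1 to 4. On this scale every KO mouse was above every Ctrl mouse, with KO replicate 3 only 0.0760 FPKM above Ctrl replicate 3. With TMM-scaled library sizes the genotypes overlapped, since KO replicate 3 stood at 33.8 and Ctrl replicate 1 at 34.0, and the difference in means was 1.45 FPKM. The means were 33.1 ± 0.627 and 34.7 ± 1.19 (SD, n = 4 each), a difference of 1.64 FPKM, or 4.96%. No test was made of this sum, since it is a score over the members. Without any single mouse the difference on the deposited scale lay between 1.07 FPKM, without KO replicate 4, and 2.00 FPKM. By gene, the difference in mean FPKM was 0.885 for Mex3c, 0.517 for Mex3b and 0.241 for Mex3d, or 40.7%, 23.8% and 11.1% of the Mex3a loss, and none of these genes passed the test. Single mice turn the order of the first 2. Without KO replicate 4 the differences were 0.361 for Mex3c, 0.685 for Mex3b and 0.0281 for Mex3d, and without Ctrl replicate 2 they were 0.591, 0.633 and 0.124. The Mex3d difference was 0.419 without Ctrl replicate 4 and 0.423 without KO replicate 2. To equal the loss alone, Mex3b would have to be 2.75-fold its Ctrl level, Mex3d 1.36-fold and Mex3c 1.08-fold. The 95% intervals of the ratios end at 1.97 for Mex3b and 1.21 for Mex3d, below those values, and at 1.13 for Mex3c, above it. The interval of Mex3c thus holds both no difference and one as large as the whole loss.

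**Figure D3:**
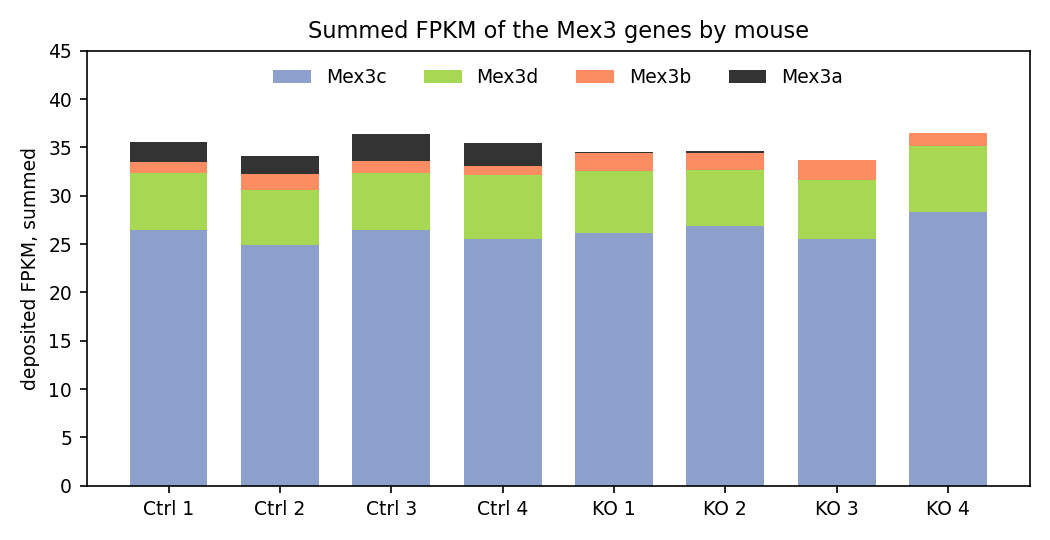
Deposited FPKM of Mex3c, Mex3d, Mex3b and Mex3a stacked for each mouse, with the bar height as the sum of the 4 genes. Bars reach 34.1 to 36.4 in Ctrl and 33.7 to 36.5 in KO, and the dark Mex3a segment at the top is 1.90 to 2.76 FPKM in Ctrl and at most 0.188 in KO.

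No relation between the 3 paralogs over mice passed after adjustment. Log2 CPM was centred on each genotype's mean, and the 3 pairs were compared over 8 mice with exact permutations within genotype (576 in all). Mex3b and Mex3c gave Pearson's r = -0.79 (permutation p = 0.0451, adjusted p = 0.0677) and Spearman's rho = -0.83 (permutation p = 0.0208, adjusted p = 0.0625), and r was -0.88 without the 2 mice farthest from the median of Mex3b, which were Ctrl replicate 4 and KO replicate 4. Mex3b and Mex3d gave r = -0.83 (permutation p = 0.0243, adjusted p = 0.0677) and rho = -0.74 (permutation p = 0.0556, adjusted p = 0.0833), but r was -0.41 without the same 2 mice, so that it rests on this same-numbered pair. For Mex3c and Mex3d, r was 0.42 (permutation p = 0.375, adjusted p = 0.375) and rho 0.45 (permutation p = 0.347, adjusted p = 0.347), with r at -0.081 without the 2 mice farthest on Mex3c. The adjustment was over the 3 pairs of genes, and the permutations took the 8 mice as independent, without the pairing by replicate number. The Xist/Y groups hold too few mice for values within them.

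Among 11336 protein-coding genes with a mean log2 CPM of at least 1, the patterns most like those of the members were found over the 8 mice. For Mex3a, uncentred, they were Mccc2, a mitochondrial carboxylase subunit of leucine breakdown (r = 0.97), Bcl7a, a subunit of the SWI/SNF chromatin remodeller (r = 0.96), and Rnf168, a ubiquitin ligase of DNA damage signalling (r = 0.95). The log2 fold changes of these 3 were -0.12, -0.40 and -0.25, with adjusted p-values from 0.329 to 0.618 by edgeR, so none passed. Without centring, r with Mex3a mostly reflects the difference between genotypes, and it does not measure variation within them. For the other members, after centring on genotype means, the closest were Gorasp2 (r = 0.98), Aldh16a1 (r = 0.97) and Nabp2 (r = 0.95) for Mex3b, Slit2 (r = 0.97), Oxr1 (r = 0.96) and Bbs1 (r = 0.94) for Mex3c, and Phldb2 (r = 0.98), Camk1 (r = 0.96) and Gadd45a (r = 0.95) for Mex3d. With so many genes and 8 mice from the same libraries, r above 0.9 was met by 22, 7 and 20 genes for Mex3b, Mex3c and Mex3d. For Mex3a it was met by 16 genes without centring, a different measure.

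The genes through which MEX3 proteins are known to act were taken from a list of 27 partners, targets and regulators, of which 25 could be tested. None passed an adjusted p under 0.05 by edgeR, with or without the replicate block, or by DESeq2, while 6 had an unadjusted p under 0.05, of which 5 had a higher mean in KO and 1 a lower one. Those 6 are 24.0% of the genes tested from the list, against 8.38% of all genes, and the list's median log2 fold change was 0.052 against -0.016 over all genes. Of the 6, 4 were among the 5 tested genes linked to MEX3C. B2m, H2-K1 and H2-D1 all encode parts of MHC class I, so the 6 need not be independent. The list was also chosen with earlier results of these data known. The number of list genes under that unadjusted threshold was 0 without KO replicate 3, 1 without Ctrl replicate 1, 2 without Ctrl replicate 2 or KO replicate 2, and 3 without Ctrl replicate 3 or KO replicate 4. Genotypes overlapped for every gene of the list. Some of the listed links are between proteins, as for RIG-I and Argonaute, and mRNA levels do not measure such links.

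Of the 6 genes linked to MEX3A, Lgr5, the R-spondin receptor that marks crypt base stem cells, stood at 62.7 to 109 CPM in Ctrl and 44.7 to 83.1 CPM in KO. Its log2 fold change was -0.50 (SE 0.22, unadjusted p = 0.0493, adjusted p = 0.593 by edgeR). Klf4, a transcription factor of differentiated epithelium whose mRNA the study names as a MEX3A target, was at 59.4 to 124 CPM in Ctrl and 104 to 141 CPM in KO, a log2 fold change of 0.41 (SE 0.20, unadjusted p = 0.0749, adjusted p = 0.623 by edgeR). Over the alternatives it ranged from 0.25 without Ctrl replicate 2 to 0.58 without Ctrl replicate 4. Its unadjusted p was under 0.05 in 5 of 15 of them, namely without Ctrl replicate 4, with the replicate block, with the Xist/Y covariate, without the low-count filter and by DESeq2, and its adjusted p was 0.305 to 0.972. Cdx2, the intestinal identity factor, differed by 0.087 (SE 0.10) on the log2 scale. Pparg, Ppara and E2f3 lay between -0.13 and -0.041.

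Of the genes linked to MEX3B, Runx3, a transcription factor of T cells and epithelium, was at 0.841 to 1.25 CPM in Ctrl and 1.16 to 3.12 CPM in KO. Its log2 fold change was 0.89 (SE 0.33, unadjusted p = 0.0253, adjusted p = 0.546 by edgeR). Without KO replicate 3, the mouse with the highest immune marker sum (51.1 CPM), it was 0.57 (unadjusted p = 0.0876 by edgeR), and the part of immune cells was not tested. Il33, a cytokine whose expression MEX3B is known to raise, differed by 0.80 (SE 0.54). Tlr3, a sensor of double-stranded RNA that is known to need MEX3B, differed by 0.11 (SE 0.11) and Suz12, a Polycomb subunit, by -0.035 (SE 0.073). Cxcr2 had 0 counts in every mouse.

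Of the 5 tested genes linked to MEX3C, 4 were higher at an unadjusted p under 0.05 by edgeR, against 5.33% of all genes. B2m, the light chain of MHC class I, was at 345 to 559 CPM in Ctrl and 490 to 652 CPM in KO, with a log2 fold change of 0.35 (SE 0.15, unadjusted p = 0.0467 by edgeR). The class I heavy chains H2-K1 and H2-D1 differed by 0.35 (SE 0.13, unadjusted p = 0.0255) and 0.38 (SE 0.15, unadjusted p = 0.0320 by edgeR). Reads of H2-K1 and H2-D1 are uncertain, since class I genes are close copies of each other. Ddx58, which encodes RIG-I, was at 18.3 to 29.3 CPM in Ctrl and 25.9 to 39.3 CPM in KO, with 0.50 (SE 0.19, unadjusted p = 0.0273 by edgeR). The adjusted p-values of these 4 by edgeR were between 0.546 and 0.589. Without KO replicate 3 their unadjusted p-values by edgeR were 0.110 for B2m, 0.0648 for H2-K1, 0.0635 for H2-D1 and 0.0729 for Ddx58. The deadenylase Cnot7, whose log2 fold change was -0.12 (SE 0.072), had an unadjusted p above the threshold. Igf1 had at most 4 counts per mouse. Mex3c itself had a 95% interval of -0.098 to 0.18. The immune marker sum given with Mex3b was 12.2 to 24.3 CPM in Ctrl and 19.1 to 51.1 CPM in KO. Its relation to these genes over mice was not computed, and the part of immune cells was not tested.

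For Mex3d, Bcl2, which restrains apoptosis, was at 11.4 to 13.3 CPM in Ctrl and 10.5 to 14.5 CPM in KO, a log2 fold change of -0.043 (SE 0.13, adjusted p = 0.963 by edgeR). The 9 genes linked to the whole family were those for Argonaute and P-body proteins (Ago1, Ago2 and Dcp1a), which hold silenced mRNAs, and for 14-3-3 proteins (Ywhab, Ywhae, Ywhag, Ywhah, Ywhaq and Ywhaz). None of the 9 had an unadjusted p under 0.05 by edgeR, against 8.38% of all genes, and their median log2 fold change was 0.043 against -0.016 over all genes.

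**Figure D4:**
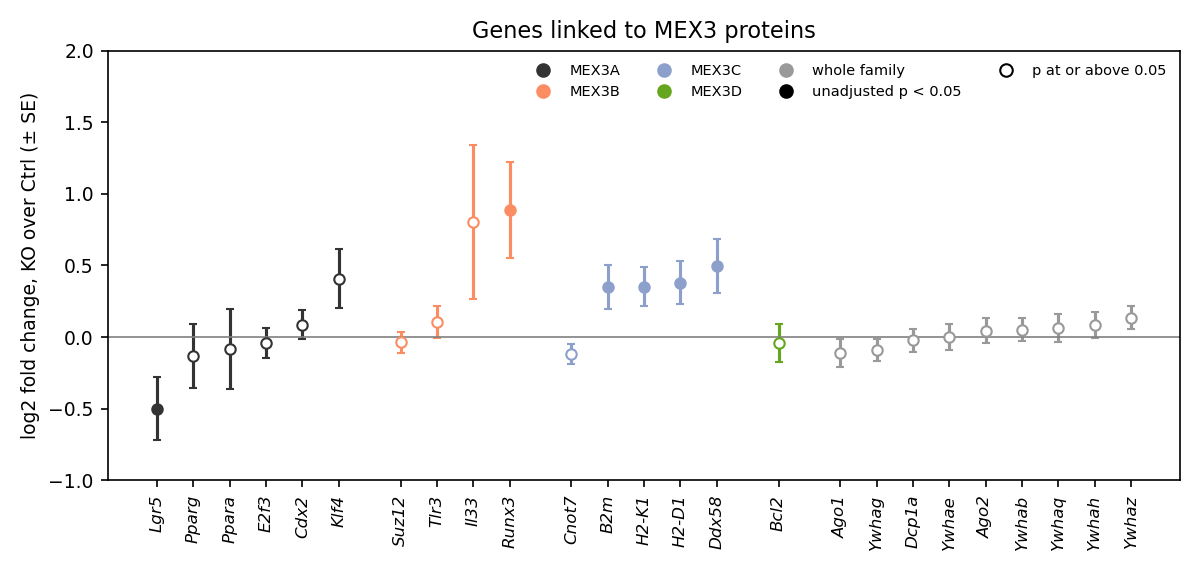
Log2 fold change of KO over Ctrl by edgeR with its SE for the 25 tested genes linked to MEX3A, MEX3B, MEX3C, MEX3D or the whole family, ordered by value within each group. Filled points mark the 6 genes with an unadjusted p under 0.05, namely Lgr5 below 0 and Runx3, B2m, H2-K1, H2-D1 and Ddx58 above it, and none passed after adjustment.

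The genes on either side of the deletion were examined because an altered locus can change its neighbours. Rab25, a small GTPase of epithelial vesicle traffic 633 bases from Mex3a, was at 131 ± 8.09 CPM in Ctrl and 138 ± 11.4 CPM in KO (SD, n = 4 each), with a log2 fold change of 0.079 (SE 0.081, adjusted p = 0.835 by edgeR). Lmna, the lamin A gene 22439 bases away, was at 158 ± 9.98 and 190 ± 14.9 CPM, with 0.26 (SE 0.081, unadjusted p = 0.00897, adjusted p = 0.518 by edgeR). For Lmna every KO mouse was above every Ctrl mouse. Of all genes, 4.05% separated the genotypes in either direction, and 5.33% were higher at an unadjusted p under 0.05. Neither passed after adjustment.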

How the data were processed

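RNA of intestinal crypts from 8 mice was analysed, and samples were grouped by their genotype labels. The authors deposited raw counts per gene, with no normalization, which the submitters' processing notes tie to HISAT2 2.0.5 and featureCounts 1.5.0-p3. The genome build and strandedness are not given in the sources used here, and the deposited coordinates match GRCm38. The authors also deposited FPKM values and gene lengths in bases. These FPKM equal counts over gene length and library size times 1 factor per mouse (0.951 to 1.04), and they were used for levels between genes and for sums. Columns and files that hold the authors' own fold changes and p-values were not used.

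Counts were fitted with edgeR 4.0.16 in R 4.3.3: filterByExpr (minimum count 10), TMM factors, genotype as the only term, and the quasi-likelihood test with Benjamini-Hochberg adjustment over 16109 genes. CPM are TMM-scaled. The edgeR p-values set a difference against the spread between these 8 mice, with the estimate of that spread partly shared across genes. Sign-flip p-values concern ratios between genes within a mouse. Poisson intervals cover counting error only. Sequences came from GENCODE M21 transcripts and RefSeq promoters.

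Same-numbered mice deviated together over all genes (correlations 0.129, 0.501, 0.141 and 0.294), so a fit blocked on the number is reported beside any call it alters. The main fit and the permutation and sign-flip tests did not use the number. Same-numbered mice also share their Xist/Y group, which can add to these correlations, and the sources used here do not tie a number to a litter. Within a genotype, every pair of libraries differed by more than sampling noise (chi-square over its degrees of freedom, 23.4 to 86.3).

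The members, gene lists and tests were chosen with earlier results of these data known. Named besides the members were rows that overlap them, the nearest expressed genes beside Mex3a, the listed partners with an unadjusted p under 0.05 (plus Klf4, Cdx2, Bcl2, B2m and E2f3), and for each member the 3 genes with the highest r. The other partners printed, Pparg, Ppara, Il33, Tlr3, Suz12, Cxcr2, Cnot7, Igf1 and the 9 genes linked to the whole family, were named after their values were seen. Of the lists, 1 partner gene and 1 nerve marker are not reported here, for no reason of their values, and were left out of the counts. Alternatives were DESeq2 1.42.0, RLE factors, no low-count filter, limma 3.58.1 on log2(FPKM + 1) and log2(FPKM + 0.1) of the deposited FPKM, the replicate block, the Xist/Y group as a covariate, and leaving out each mouse.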

Additional observations from a re-analysis of the deposited data

Results flagged for a closer look

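The interaction of genotype with the Xist/Y grouping was -2.19 on the log2 scale for Mex3a and did not pass the threshold with the filter on low counts (95% interval -3.02 to -1.37, adjusted p = 0.687 by edgeR with that filter, 0.00104 without it). It was listed here because the test of the difference passed in the fit without the filter, in which 407 of 31255 genes passed, against 0 of 16109 with it, where 616 had an unadjusted p under 0.05. All 4 KO counts behind it are between 6 and 28, so the 95% interval may be too narrow. Of 32 groups of 4 mice examined for a single mouse far from the others, 0 had one, where chance would give about 1.6.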

How the results depend on the processing

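Mex3b, Mex3c and Mex3d stayed above an adjusted p of 0.05 in all 15 alternatives. The log2 fold change of Mex3b was 0.30 to 0.63 and its adjusted p 0.373 to 0.972, and the change of Mex3c was 0.011 to 0.060. Mex3d was -0.0023 without KO replicate 4 and otherwise positive, up to 0.093. For Mex3a the log2 fold change was -4.51 with the replicate block (adjusted p = 0.126), -4.87 to -4.17 with 1 mouse left out, and -1.56 by limma on log2(FPKM + 1), a scale that understates low genes. Its adjusted p ranged from 1.45e-30 by DESeq2 to 0.214 without Ctrl replicate 3, and 8 of 15 alternatives kept the call. Genes with an adjusted p under 0.05 numbered 93 by DESeq2, 2 with no low-count filter, 4 by limma on log2(FPKM + 0.1), 0 with the replicate block, 4 with the covariate for Xist/Y group, and 0 to 4 with 1 mouse left out, against 1. The cause of these differences was not tested. The replicate block changed no other call on the members. Without the low-count filter the interaction with the Xist/Y group was -2.21 for Mex3a, now past the threshold, -0.0037 for Mex3c and -0.013 for Mex3d.

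Chosen after seeing the data were FPKM with unscaled library sizes, the leaving out of mice for the order of levels and for the mean FPKM of each paralog, RLE factors for the relations, and all repeats for the partner genes. With 1 mouse left out E2f3 ranged from -0.10 to 0.058, positive without Ctrl replicate 2, and Bcl2 from -0.15 to 0.0088, positive without KO replicate 4 and, at 0.0020, without Ctrl replicate 2. Partner genes with an unadjusted p under 0.05 numbered 3 by limma with either pseudocount and 0 to 7 with 1 mouse left out, against 6. The summed FPKM kept their signs, at -1.08 to -0.16 for all 4 genes and 1.07 to 2.00 for the 3 paralogs. Pairing leaves a mean difference of sums as it is, so it gave no separate value. Depth limits Mex3a in KO, at 6 to 28 counts, more than any other member.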
